A study of Mus musculus with 7 samples.

Results

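The transcripts described here encode ligands and receptors of the transforming growth factor beta (TGF-beta) superfamily in inflamed mouse prostate. The 10 genes were taken by symbol from a fixed list: the ligand genes Tgfb1, Tgfb2 and Tgfb3, the receptor genes Tgfbr1, Tgfbr2 and Tgfbr3, the activin subunit genes Inhba and Inhbb, and the bone morphogenetic protein (BMP) genes Bmp4 and Bmp7. All 10 were present among the 16019 genes measured. No filter on low values removed any of them.

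TGF-beta, activin and BMP ligands are secreted dimers that bring type I and type II serine-threonine kinase receptors together on the cell surface. The activated type I receptor phosphorylates SMAD proteins, which enter the nucleus with SMAD4 and regulate target genes. In the prostate, stromal TGF-beta is known for restraining epithelial growth and for driving matrix deposition by fibroblasts, while BMP4 and BMP7 limit budding and branching during development of the gland.

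The 7 libraries came from prostate tissue of mice with experimental autoimmune prostatitis (EAP), an immune-driven inflammation of the gland that both groups carried. In the vehicle group (3 libraries, replicates 1, 3 and 4) the mice received methyl-β-cyclodextrin, the solvent. The LIT-927 group (4 libraries, replicates 1 to 4, also called treated below) received LIT927, a small molecule that neutralises the chemokine CXCL12, intraperitoneally at 25 mg/kg per day. Both courses lasted 14 days. Strain, age and genotype are not given in the labels, and no library from mice without prostatitis was analysed here. Nothing states that each library was a separate animal, so the p-values describe the spread between these samples, which may be partly technical.

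Expression is given as FPKM, which corrects fragments for gene length and library depth, so levels can be compared between genes. Recovered whole fragments summed to between 32047672 and 35261944 per library. Pbsn, the probasin gene of prostate luminal cells, was at 129 to 11311 FPKM, so prostate transcripts were present in every library. The libraries fell far apart in Svs1, a seminal vesicle secretory transcript. It was at 80.9, 11985 and 25355 FPKM in vehicle replicates 1, 3 and 4 and at 123, 38.8, 11062 and 243 FPKM in LIT-927 replicates 1 to 4. Thus 3 libraries were above 1000 FPKM (2 vehicle, 1 LIT-927) and 4 were below it (1 vehicle, 3 LIT-927), and results touched by this imbalance are given with it. Median-of-ratios factors ran from 0.665 in vehicle replicate 4 to 1.306 in vehicle replicate 1, so the deposited values of most genes lie low in the first of these libraries and high in the second.

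The comparison asked how blocking CXCL12 left the transcripts of this pathway in the inflamed gland. The only gene of the 10 with an unadjusted limma p under 0.05 was Tgfb3, whose mean was 5.60 ± 2.57 FPKM in the treated group (SD, n = 4) against 12.2 ± 5.6 FPKM in the solvent group (SD, n = 3). Bmp4 had the next largest difference, 2.52 ± 1.48 against 4.75 ± 3.61 FPKM. The other 8 genes differed by less than their spread or lay near the detection limit. After Benjamini-Hochberg adjustment over all genes, limma called 0 of the 10 genes, as it called 0% of the 16019 genes, so no change passed the test. At an unadjusted p under 0.05 the count was 1 of 10, against 3.68% of all genes (2.96% in the lower direction, that of Tgfb3). Means were lower with LIT-927 for 6 of the 10, against 44.5% of all genes. After median-of-ratios scaling the counts were again 1 of 10, against 8.42% (5.51% lower), and 6 of 10, against 49.7%.

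**Figure D1:**
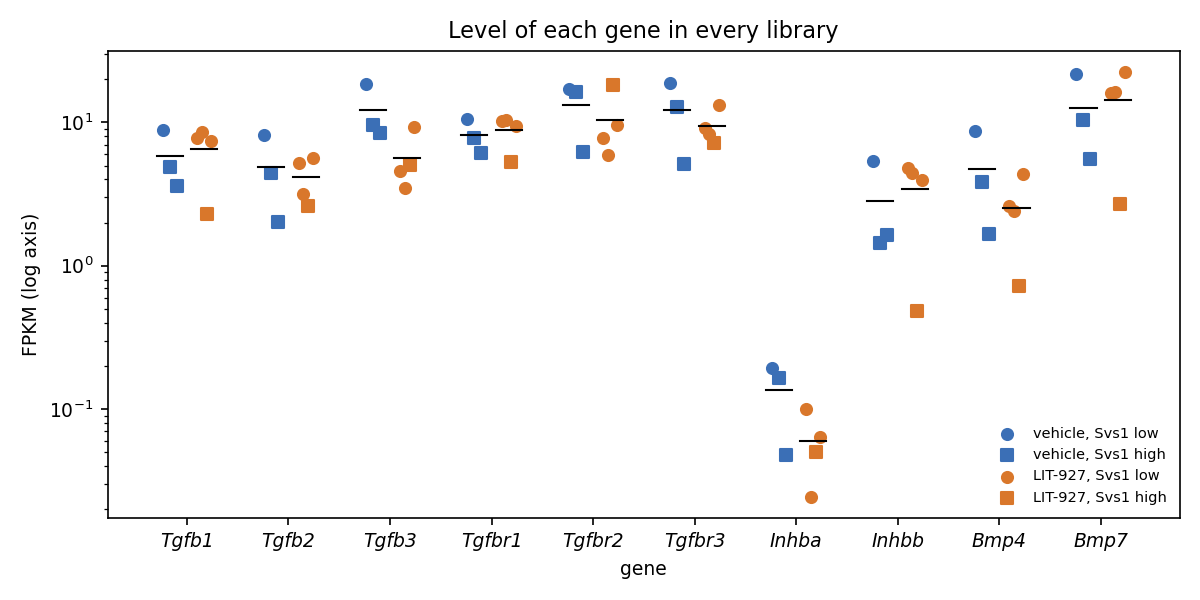
FPKM of each of the 10 genes (log axis) in the 3 vehicle and 4 LIT-927 libraries. Each point is a library, squares mark the 3 libraries with Svs1 above 1000 FPKM, and short lines are group means. The vehicle and LIT-927 points overlap for all 10 genes, and Inhba lies below 0.2 FPKM throughout.

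Tgfb3 (mm10 chromosome 12, 86056745 to 86079041, minus strand) encodes the TGF-beta isoform best known for palate fusion and lung development. It was at 18.6, 9.65 and 8.38 FPKM in vehicle replicates 1, 3 and 4. The LIT-927 replicates 1 to 4 were at 4.57, 3.47, 5.02 and 9.34 FPKM. LIT-927 replicate 4 was the only LIT-927 library above any vehicle library, exceeding vehicle replicate 4. The difference in log2(FPKM + 1), LIT-927 minus vehicle, was -0.99 (SE 0.37; 95% interval -1.86 to -0.13). The limma p was 0.0296 before and 0.998 after adjustment, and the exact two-sided permutation p was 0.0857, where 0.0286 is the smallest the 35 divisions allow. The unadjusted limma p was no longer under 0.05 without vehicle replicate 1, LIT-927 replicate 1 or LIT-927 replicate 2, without both replicates 3, or with the replicate number as a block. The difference was -0.67 without vehicle replicate 1.

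Library scaling bears on that overlap. Divided by median-of-ratios factors, Tgfb3 stood at 14.2, 8.95 and 12.6 in the vehicle libraries and at 4.02, 3.42, 6.17 and 8.06 in the LIT-927 libraries. On this scale every LIT-927 library was below every vehicle library, which held for 1 of the 10 genes and for 4.99% of all genes. The scaled difference was -1.05 (SE 0.29), with a limma adjusted p of 0.568.

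Tgfb1 (chromosome 7, 25687002 to 25705077, plus strand) encodes the most widely studied isoform, a suppressor of T cell activation. It was at 8.91, 4.91 and 3.63 FPKM in vehicle replicates 1, 3 and 4 while the treated libraries 1 to 4 stood at 7.72, 8.50, 2.28 and 7.47 FPKM. LIT-927 replicate 3 was the lowest library of all, and the groups overlapped. The difference was 0.10 (SE 0.45; 95% interval -0.94 to 1.14), so a change of this isoform by either sign within that interval was not resolved.

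Tgfb2 (chromosome 1, 186622792 to 186705989, minus strand) encodes the isoform that needs the co-receptor betaglycan for high-affinity binding. It was at 8.13, 4.45 and 2.02 FPKM with vehicle and at 5.24, 3.15, 2.60 and 5.65 FPKM with LIT-927. Both extremes were vehicle libraries, and the LIT-927 values lay between them. The difference was -0.09 (SE 0.42; 95% interval -1.07 to 0.89).

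The order of the 3 isoforms differed between libraries. Tgfb3 was the most abundant isoform in 3 of 3 vehicle libraries and in 2 of 4 LIT-927 libraries. The ratio of Tgfb1 to Tgfb3, which does not depend on library scaling, was 0.480, 0.509 and 0.433 in the vehicle libraries. In LIT-927 replicates 1 to 4 it was 1.69, 2.45, 0.455 and 0.800. LIT-927 replicate 3 fell inside the vehicle range and the other LIT-927 libraries above it. This ratio was picked after its values were seen and is given without a test.

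**Figure D2:**
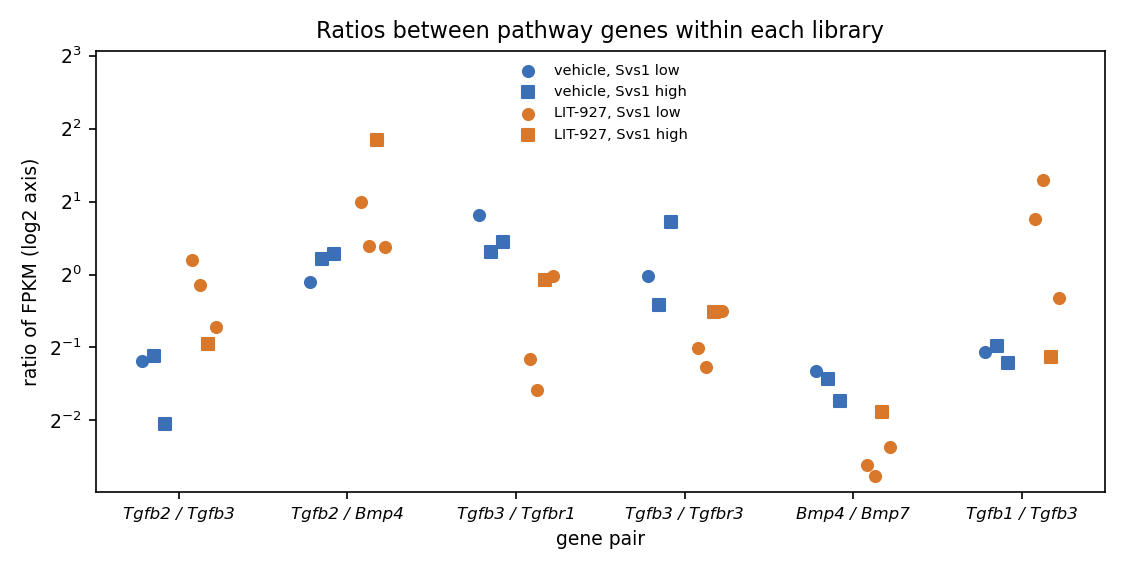
FPKM ratios of 6 gene pairs within each library (log2 axis): the 5 of 36 pairs in which vehicle and LIT-927 libraries did not overlap, and Tgfb1 over Tgfb3. Tgfb1 over Tgfb3 was 0.433 to 0.509 in vehicle libraries and 0.455 to 2.45 in LIT-927 libraries, where only replicate 3 lay in the vehicle range.

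Among the 9 genes with a mean of at least 1 FPKM, 36 ratios can be formed, and in 5 of them (13.9%) the groups did not overlap. Over 60164965 pairs among the 10970 genes at that level that were above 0 in every library (of 11060 at that level), the share was 7.99%. The pairs share genes and are not independent. Of the 5, Tgfb3 was in 3: it was lower relative to Tgfbr1, Tgfbr3 and Tgfb2. Bmp4 was in the other 2, lower relative to Bmp7 and Tgfb2. Tgfb3 over Tgfbr1 was 1.76, 1.24 and 1.37 in the vehicle libraries and 0.450, 0.332, 0.948 and 0.989 in the LIT-927 libraries. Relative to its main type I receptor transcript, the ligand was therefore above 1 in each vehicle library and below 1 in each LIT-927 library.

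Tgfbr1 (chromosome 4, 47353222 to 47414931, plus strand) encodes the type I TGF-beta receptor, the kinase that phosphorylates SMAD2 and SMAD3. It was the steadiest of the 10, with a highest library 2.0 times the lowest. Vehicle libraries were at 10.6, 7.78 and 6.12 FPKM and LIT-927 libraries at 10.2, 10.4, 5.29 and 9.44 FPKM. The groups overlapped, and the difference was 0.09 (SE 0.29; 95% interval -0.59 to 0.77).

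Tgfbr2 (chromosome 9, 116084293 to 116175360, minus strand) encodes the type II receptor that binds the ligand first. The vehicle libraries 1, 3 and 4 held 17.2, 16.3 and 6.24 FPKM. The treated libraries 1 to 4 held 7.79, 5.91, 18.3 and 9.64 FPKM. High and low libraries occurred in both groups, and LIT-927 replicate 3, the lowest for Tgfb1 and Tgfbr1, was the highest here. The difference was -0.32 (SE 0.45). Leaving out vehicle replicates 1, 3 and 4 in turn gave -0.081, -0.12 and -0.75, and leaving out LIT-927 replicates 2 and 3 gave -0.11 and -0.61. Upk1a, a urothelial uroplakin, was at 172 and 253 FPKM in vehicle replicate 3 and LIT-927 replicate 3 and at 2.64 to 10.1 FPKM elsewhere. Its part in the Tgfbr2 values was not tested, and vehicle replicate 1, also high for Tgfbr2, was at 9.78 FPKM of Upk1a. After median-of-ratios scaling, Tgfbr2 was highest in LIT-927 replicate 3 (22.6) and vehicle replicate 3 (15.1), followed by vehicle replicate 1 (13.2).

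Tgfbr3 (chromosome 5, 107106570 to 107289629, minus strand) encodes betaglycan, which presents ligand to the signalling receptors and also serves as an inhibin co-receptor. It was at 18.7, 12.8 and 5.09 FPKM with vehicle and at 9.17, 8.34, 7.18 and 13.2 FPKM with LIT-927. Vehicle libraries held both the highest and the lowest value. The difference was -0.21 (SE 0.41; 95% interval -1.16 to 0.74).

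Inhba (chromosome 13, 16011851 to 16031621, plus strand) encodes the beta A subunit of activin A, an inflammation-induced ligand. It was scarcely detected, with 81, 70 and 21 recovered fragments in the vehicle libraries and 41, 10, 20 and 28 in the LIT-927 libraries. These counts correspond to 0.135 ± 0.077 FPKM (vehicle) and 0.0598 ± 0.0317 FPKM (treated), over a gene model of 12477 bases implied by the values. The groups overlapped, because vehicle replicate 4 lay among the LIT-927 libraries. At this depth the difference of -0.10 in log2(FPKM + 1) (SE 0.06) is close to what a pseudocount of 1 hides. With a pseudocount of 0.1 it was -0.52, and with voom on fragments -1.09, with a limma adjusted p of at least 0.302 in every alternative run.

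Inhbb (chromosome 1, 119415465 to 119422248, minus strand) encodes the beta B subunit of activin B and inhibin B. It was the far more abundant activin subunit, at 5.37, 1.44 and 1.64 FPKM with vehicle and 4.84, 4.44, 0.483 and 3.99 FPKM with LIT-927. The highest and the lowest library differed 11.1-fold, and the extremes came from different groups. The difference between groups was 0.18 (SE 0.57; 95% interval -1.15 to 1.51). Inha, which encodes the alpha subunit of inhibins, had a difference of 0.15 and is counted with the other ligands below.

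Bmp4 (chromosome 14, 46383520 to 46390669, minus strand) encodes a BMP of urogenital mesenchyme. Bmp4 measured in the vehicle libraries 1, 3 and 4 was 8.72, 3.86 and 1.67 FPKM, and the treated libraries 1 to 4 at 2.63, 2.39, 0.726 and 4.35 FPKM. The groups overlapped, since vehicle replicate 4 was below 3 LIT-927 libraries. The difference was -0.62 (SE 0.53), with an exact two-sided permutation p of 0.371 and a limma adjusted p of 0.998. Leaving out vehicle replicate 1 gave -0.14, leaving out vehicle replicate 4 gave -1.07, and leaving out LIT-927 replicate 3 gave -0.31. In LIT-927 replicate 3 the value rested on 48 fragments.

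Bmp7 (chromosome 2, 172868012 to 172940321, minus strand) encodes a BMP of prostate mesenchyme and epithelium. It was at 21.8, 10.4 and 5.52 FPKM with vehicle and at 16.0, 16.2, 2.68 and 22.5 FPKM with LIT-927. The LIT-927 group held both the highest and the lowest library, and the difference was 0.08 (SE 0.69; 95% interval -1.53 to 1.69). The ratio of Bmp4 to Bmp7 separated the groups, at 0.400, 0.372 and 0.302 in the vehicle libraries against 0.164, 0.148, 0.271 and 0.194 in the LIT-927 libraries. Each LIT-927 library thus held less Bmp4 per Bmp7 transcript than each vehicle library, as in the 7.99% of gene pairs given above that were apart in either direction.

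Ordered by mean FPKM, the vehicle group ran Tgfbr2 (13.3), Bmp7 (12.6), Tgfbr3 and Tgfb3 (both 12.2), Tgfbr1 (8.16), Tgfb1 (5.81), Tgfb2 (4.87), Bmp4 (4.75), Inhbb (2.82) and Inhba (0.135). The LIT-927 group ran Bmp7 (14.3), Tgfbr2 (10.4), Tgfbr3 (9.47), Tgfbr1 (8.84), Tgfb1 (6.49), Tgfb3 (5.60), Tgfb2 (4.16), Inhbb (3.44), Bmp4 (2.52) and Inhba (0.0598). Neighbours in either order differed by less than the larger of their 2 SDs, apart from Inhba, whose highest library was below the lowest library of every other gene in both groups. Tgfb3 moved from rank 4 with vehicle to rank 6 with LIT-927, below Tgfb1.

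**Figure D3:**
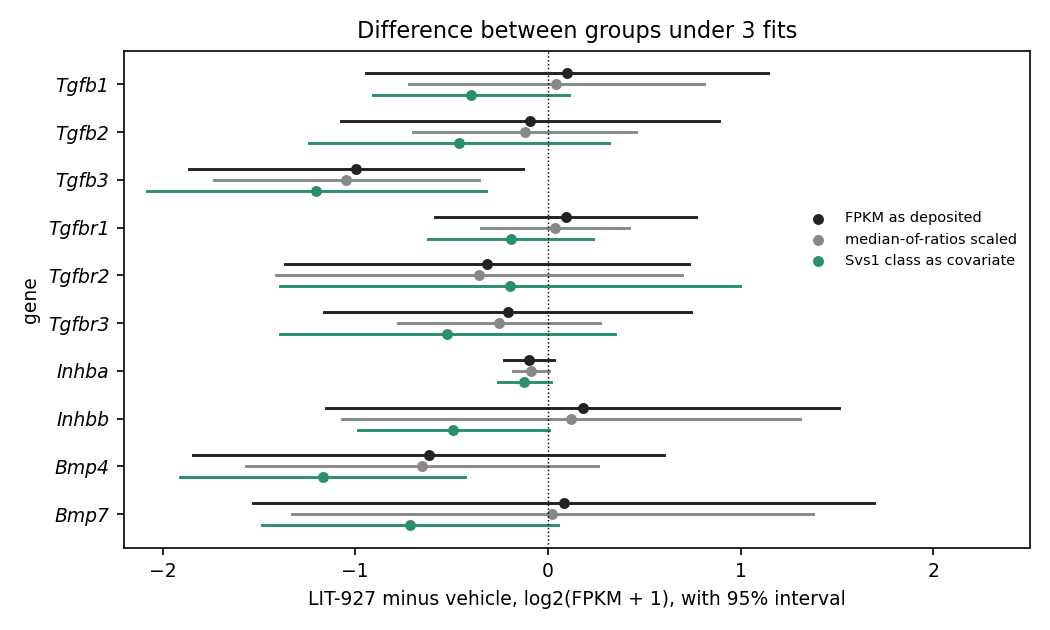
Difference in log2(FPKM + 1), LIT-927 minus vehicle, with limma 95% intervals for the 10 genes: as deposited, after median-of-ratios scaling, and with the Svs1 class of the library as a covariate. Only the Tgfb3 interval stays below 0 in all 3 fits, and all 10 differences are below 0 once the Svs1 class is included.

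Across the 7 libraries, Tgfb1, Tgfbr1, Inhbb and Bmp7 varied together. Their log2(FPKM + 1) values correlated pairwise at Pearson r from 0.93 to 0.99 as deposited, and at 0.62 to 0.97 after median-of-ratios scaling. These correlations are descriptions over 7 libraries that share depth, tissue make-up and a scaling factor. All 4 genes were lower in each of the 3 libraries above 1000 FPKM of Svs1 than in each of the 4 libraries below it, as were 26.7% of all genes. After scaling this held for 3 of the 4, Tgfbr1 being the exception, and for 8.71% of all genes. Bmp7, for instance, was at 16.0 to 22.5 FPKM in the 4 libraries with little Svs1 and at 2.68 to 10.4 FPKM in the 3 with much. None of the other 6 genes separated the libraries in this way. Akr1b7, from the vas deferens and epididymis markers, split the same libraries opposite to Svs1. Its direction was that of Tgfb1, Tgfbr1, Inhbb and Bmp7. It was at 5998 to 17099 FPKM in the 4 libraries with little Svs1 and at 15.9 to 1597 FPKM in the 3 with much. The seminal vesicle marker sum did not follow the class. In LIT-927 replicate 2, with little Svs1, it was 299700 FPKM, above 295150 FPKM in LIT-927 replicate 3. The Svs1 class and the Akr1b7 level cannot be told apart here.

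**Figure D4:**
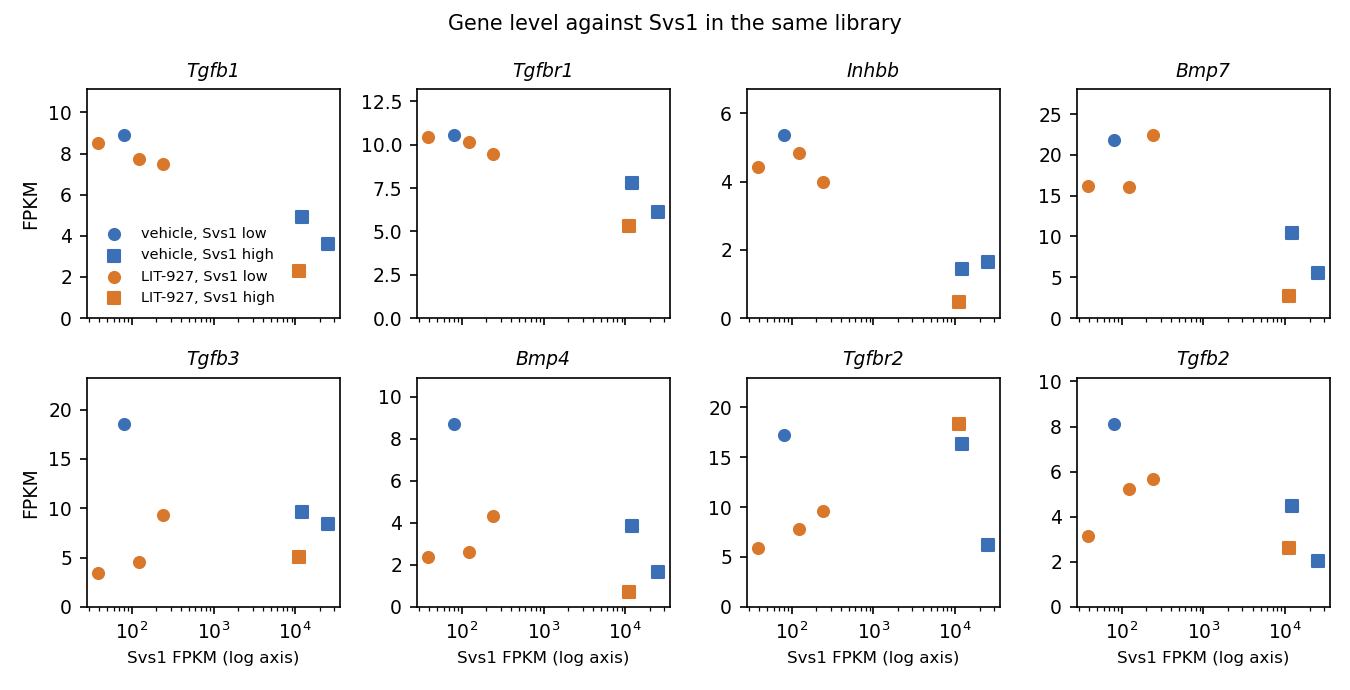
FPKM of 8 genes against the FPKM of Svs1 (log axis) in the same library. Colours are the treatment groups and squares the libraries with Svs1 above 1000 FPKM. Tgfb1, Tgfbr1, Inhbb and Bmp7 are lower in all 3 squares than in all 4 circles, while the highest Tgfbr2 value, 18.3 FPKM, is a square.

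Promoter sequence is shown for the members of this co-varying set that the RefSeq table (GRCm38.p6, the same assembly as mm10) holds, because they varied together. In all, 7 of the 10 genes had an entry. Each line gives the 250 bases before the annotated start, 5′ to 3′ on the gene's strand. Capitals mark the GC box GGGCGG on either strand, the core of SP1 sites.
Tgfb1, chr7:25686752-25687001, plus strand: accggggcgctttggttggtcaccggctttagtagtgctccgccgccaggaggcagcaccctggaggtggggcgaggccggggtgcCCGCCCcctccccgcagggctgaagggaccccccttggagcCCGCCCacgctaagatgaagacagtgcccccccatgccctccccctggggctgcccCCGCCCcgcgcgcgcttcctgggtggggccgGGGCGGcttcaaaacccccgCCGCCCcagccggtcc
Tgfbr1, chr4:47352972-47353221, plus strand: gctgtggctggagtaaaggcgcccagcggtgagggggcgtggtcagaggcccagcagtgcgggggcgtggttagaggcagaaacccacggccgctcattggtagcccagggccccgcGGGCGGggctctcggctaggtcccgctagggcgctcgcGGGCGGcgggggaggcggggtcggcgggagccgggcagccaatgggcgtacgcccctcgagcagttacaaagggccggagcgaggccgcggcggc
Inhbb, chr1:119422249-119422498, minus strand: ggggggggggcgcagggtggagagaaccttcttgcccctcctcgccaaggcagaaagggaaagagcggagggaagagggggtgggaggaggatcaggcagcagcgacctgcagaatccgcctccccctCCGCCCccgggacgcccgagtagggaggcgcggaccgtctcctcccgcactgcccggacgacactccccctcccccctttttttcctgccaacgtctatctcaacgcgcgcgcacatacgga
Tgfb1 held 5 GC boxes, Tgfbr1 2 and Inhbb 1. At least 1 was found in 32.7% of the 32851 promoters in the table, and 5 or more in 1.93%. A second annotated Tgfbr1 start held none. The matches describe letters in these windows only.

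Because vehicle and LIT-927 libraries were spread unevenly over the Svs1 classes, values were also read within each class. Tgfb1 was at 8.91 FPKM in the single vehicle library with little Svs1 and at 7.47 to 8.50 FPKM in the 3 such LIT-927 libraries. Where Svs1 was high, it was at 3.63 and 4.91 FPKM with vehicle and 2.28 FPKM with LIT-927. LIT-927 values were thus lower within both classes although the pooled difference was above 0. The same order within both classes held for 5 of the 10 genes (Tgfb1, Tgfb3, Tgfbr1, Inhbb and Bmp4), against 22.4% of all genes. After median-of-ratios scaling it held for 3 (Tgfb3, Inhba and Bmp4), against 19.8% of all genes. With a single vehicle library in the low class and a single LIT-927 library in the high class, these orders have little replication, and vehicle replicate 1 had the highest scaling factor.

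With the Svs1 class as a covariate, a fit chosen after the data were seen, all 10 differences were below 0, as were 66.7% of all genes. Unadjusted limma p-values were under 0.05 for Bmp4 and Tgfb3, 2 of 10, against 15.9% of all genes (15.2% lower). The Bmp4 difference was -1.17 (SE 0.31, limma adjusted p = 0.134) and that of Tgfb3 -1.20 (SE 0.37, limma adjusted p = 0.166). Bmp7 went from 0.08 to -0.72 and Inhbb from 0.18 to -0.49. None of the 10, and 0% of all genes, passed after adjustment. With scaling added, all 10 differences were again below 0, against 48.2% of all genes, and the same 2 of 10 had an unadjusted limma p under 0.05, against 19.6% of all genes (13.8% lower). The Bmp4 difference was -1.06 (limma adjusted p = 0.0960) and the Tgfb3 difference -1.06 (limma adjusted p = 0.182).

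The genes most like each member in pattern were taken by the highest Pearson r of log2(FPKM + 1) over the 7 libraries, among 11059 genes (11060 for Inhba) with a mean of at least 1 FPKM. For Tgfb3 they were Gdf7 (r = 0.993), a BMP-family ligand, and Wt1 (r = 0.989), a transcription factor of urogenital mesoderm. Wt1 was at 2.86, 1.57 and 1.01 FPKM in the vehicle libraries and 0.307, 0.119, 0.262 and 1.12 FPKM in the LIT-927 libraries. As with Tgfb3, only LIT-927 replicate 4 reached the vehicle range. For Bmp4 they were Numbl (0.998) and Dgkd (0.997), and for Bmp7 Wfs1 (0.997) and Sos2 (0.996). Tgfb1 was closest to Mboat7 and Cd81 (both 0.994), Tgfb2 to Tbc1d10b (0.998) and Plekha8 (0.997), and Tgfbr1 to Eml3 (0.997) and Dhdh (0.995). Tgfbr2 was closest to Sbno2 (0.997) and Ninl (0.995), and Tgfbr3 to Zbtb9 (0.997) and Cep162 (0.994). Inhbb paired with Taf3 (0.992) and Inpp4a (0.991), and Inhba with Nol3 (0.973) and Zfyve1 (0.970). Such values are high for many gene pairs in 7 libraries and are descriptions only.

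The rest of the pathway was read from 8 lists of ligands, receptors, SMADs, latency proteins, antagonists, intracellular brakes and target genes, with 92 of 103 genes measured. None of the 92 passed limma after adjustment in either direction, and 3 (3.26%) had an unadjusted p under 0.05, beside 3.68% of all genes. Means were lower with LIT-927 for 68 and higher for 24, where 44.5% of all genes were lower. The median difference was -0.20, beside 0.02 over all genes. The lower count was 74 after scaling (49.7% of all genes), 82 with the Svs1 class (66.7%) and 76 with both (48.2%). It was 51 without vehicle replicate 1 (29.1% of all genes). On deposited FPKM the groups were apart for Smad6, Smad9 and Nrros, all lower with LIT-927, while 2.12% of all genes were apart in that direction. None was apart in the higher direction, against 1.08% of all genes. After scaling 12 were apart and lower (Gdf7, Gdf11, Acvrl1, Bmpr2, Eng, Smad6, Smad9, Nrros, Fbn1, Bmper, Ski and Skil) and 0 apart and higher, against 4.99% and 4.04% of all genes.

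**Figure D5:**
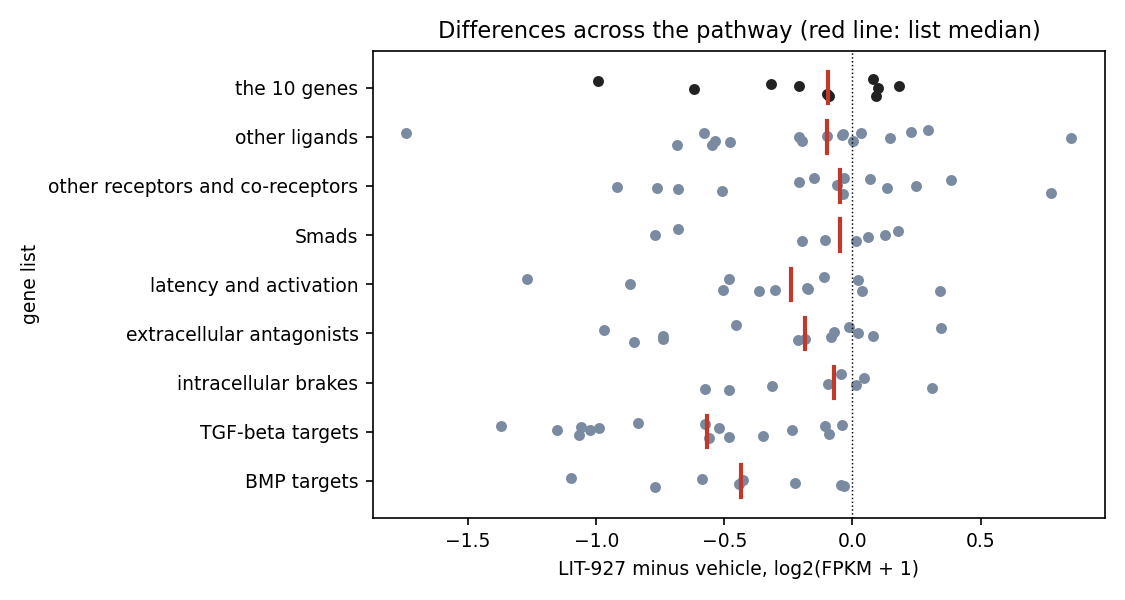
Difference in log2(FPKM + 1), LIT-927 minus vehicle, of the 10 genes and of the measured members of 8 pathway lists. Each point is a gene and each red line a list median. The medians of the TGF-beta target list (-0.57) and the BMP target list (-0.44) lie farthest below 0, and no gene shown passed the adjusted test.

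Of the other ligands, 17 of 26 were measured, 11 with a lower mean and 6 with a higher one (median -0.10). Gdf7 had the largest difference, at 18.9, 7.49 and 5.14 FPKM in the vehicle libraries and 1.10, 0.710, 1.90 and 7.09 FPKM in the LIT-927 libraries. LIT-927 replicate 4 again overlapped the vehicle range as deposited but not after scaling, and the difference was -1.74 (SE 0.62, limma adjusted p = 0.998). Bmp8b and Bmp15, the next by p, were below 0.8 FPKM in every library.

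Among the 14 other receptors and co-receptors, 9 means were lower and 5 higher (median -0.05). Bmpr1b, a type I BMP receptor, was at 18.7 ± 4.9 FPKM in treated and 11.3 ± 6.3 FPKM in vehicle libraries, a difference of 0.78 (SE 0.37). Acvr1b, the type I activin receptor, was at 6.65 ± 0.93 against 4.94 ± 1.32 FPKM. Eng, the endothelial co-receptor endoglin, was at 5.65 ± 2.89 against 11.7 ± 6.8 FPKM, with groups that overlapped as deposited and were apart after scaling. None of these passed the adjusted limma test.

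Of the 8 SMAD genes 4 had lower and 4 higher means (median -0.05). The lower count was 5 after scaling (49.7% of all genes), 7 with the Svs1 class as covariate (66.7%) and 5 with both (48.2%). Smad9, a BMP receptor-regulated SMAD, was at 3.17, 2.23 and 2.73 FPKM with vehicle and 1.70, 0.875, 0.876 and 1.93 FPKM with LIT-927. Smad6, an inhibitory SMAD and BMP target, was at 7.80, 6.75 and 5.88 FPKM with vehicle and 4.53, 3.68, 1.46 and 5.75 FPKM with LIT-927. For both genes each LIT-927 library was below each vehicle library, though Smad6 in LIT-927 replicate 4 and vehicle replicate 4 nearly met. Their differences were -0.68 (SE 0.25) and -0.77 (SE 0.36), each with a limma adjusted p of 0.998. Smad4, the common SMAD, was at 16.2 ± 2.7 against 19.2 ± 5.8 FPKM.

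In the 12 genes of latency and activation, 9 means were lower and 3 higher (median -0.24). Ltbp4, which tethers latent TGF-beta to the matrix, was at 9.54 ± 6.42 FPKM in treated against 24.4 ± 14.4 FPKM in vehicle libraries, the order used below. Nrros, which holds latent TGF-beta on myeloid cells, was at 0.508 ± 0.266 against 1.14 ± 0.68 FPKM, and Fbn1, fibrillin-1, at 1.39 ± 1.01 against 3.39 ± 2.02 FPKM. Of the extracellular antagonists, 13 of 15 were measured and 10 had lower means (median -0.18). Sostdc1, a BMP antagonist, was at 0.231 ± 0.123 against 1.46 ± 1.29 FPKM, overlapping through vehicle replicate 4 at 0.162 FPKM. Chrdl1, another, was at 2.22 ± 1.56 against 5.37 ± 3.40 FPKM, and Bmper was below 0.5 FPKM in every library. Of the 8 intracellular brakes, 5 had lower and 3 higher means (median -0.07). The lower count of the brakes was 7 after scaling (49.7% of all genes) and 7 with the Svs1 class (66.7%). Among the brakes were Skil at 2.73 ± 0.98 against 4.37 ± 2.15 FPKM, Pmepa1 at 2.40 ± 1.35 against 4.31 ± 3.06 FPKM and Tgif1 at 4.93 ± 0.52 against 3.90 ± 1.29 FPKM.

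TGF-beta target genes had a lower mean with LIT-927 in 16 of 16 (median -0.57), and BMP target genes in 8 of 8 (median -0.44), beside 44.5% of all genes. The counts were 16 and 8 after scaling, where 49.7% of all genes were lower, and 16 and 7 with the Svs1 class, where 66.7% were. Without vehicle replicate 1 they were 14 of 16 (median -0.29) and 6 of 8 (median -0.071), where 29.1% of all genes were lower, and without LIT-927 replicate 3 they were 15 (median -0.35) and 5 (median -0.21), where 38.6% were. Without vehicle replicate 3 they were 16 and 6, where 38.1% of all genes were lower. Without vehicle replicate 4 the medians were -0.98 and -0.84, and 75.0% of all genes were lower. The fibrillar collagen genes Col3a1 and Col1a2 were at 15.4 ± 8.7 against 33.6 ± 19.3 FPKM and at 19.9 ± 10.8 against 41.1 ± 26.2 FPKM. Among BMP targets, Atoh8 was at 2.53 ± 2.04 against 6.22 ± 3.0 FPKM and Id1 at 29.9 ± 13.3 against 44.8 ± 17.7 FPKM. No target gene passed the adjusted test, and the groups overlapped for all 4 of these genes, scaled or not. Several targets are also general genes of fibroblasts and smooth muscle, and the lists share 4 genes.

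Markers of stromal, vascular and immune cells had lower means alongside them, where 44.5% of all genes had a lower mean. Fibroblast markers had a lower mean in 10 of 10, with summed levels of 64.9 to 191 FPKM in treated and 72.9 to 398 FPKM in vehicle libraries, and none was at 0. Smooth muscle markers had lower means in 8 of 8 (593 to 4230 against 2049 to 7451 FPKM) and endothelial markers in 9 of 9 (7.88 to 54.0 against 28.9 to 113 FPKM). Macrophage markers had lower means in 9 of 10 (47.0 to 145 against 137 to 393 FPKM), and T and NK cell markers in 9 of 9 (1.44 to 4.69 against 4.75 to 14.1 FPKM), with Klrb1c at 0 in at least 1 library. Basal epithelial markers had lower means in 5 of 5 (23.6 to 43.7 against 29.7 to 99.9 FPKM), and Schwann cell and neuron markers in 6 of 6 (2.37 to 7.0 against 1.62 to 35.1 FPKM). Of the sums in FPKM as deposited, those of T and NK cells did not overlap between groups, though at 4.69 FPKM (LIT-927 replicate 3) and 4.75 FPKM (vehicle replicate 3) they nearly met. After median-of-ratios scaling they overlapped (1.26 to 5.77 treated, 4.40 to 21.3 vehicle), while the macrophage sums (57.8 to 125 against 127 to 339) and the basal sums (27.9 to 37.8 against 44.7 to 92.7) were apart. Vehicle replicate 1 was the highest and LIT-927 replicate 3 the lowest library for fibroblast, smooth muscle, endothelial and macrophage sums, and vehicle replicate 4, at 72.9 FPKM of fibroblast markers, was below 3 of the 4 treated libraries. In these bulk samples, fewer cells of a type and less RNA per cell cannot be told apart, and the part of cell make-up in the Tgfb3, Bmp4 and target gene values was not tested.

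Markers of ducts and secretory tissue varied within both groups. Prostate luminal markers had lower means in 6 of 8 (5994 to 116420 against 3003 to 60196 FPKM), seminal vesicle markers in 4 of 7 (142310 to 299700 against 50975 to 550010 FPKM) and urothelial markers in 3 of 4 (29.2 to 325 against 26.7 to 261 FPKM). Vas deferens and epididymis markers, 4 of 6 measured, had lower means in 0 (18.6 to 19612 against 96.8 to 9418 FPKM), and skeletal muscle markers had lower means in 7 of 7 (94.0 to 613 against 311 to 1099 FPKM). Upk3a, Lcn5, Myh1 and Myh4 were at 0 in at least 1 library.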

How the data were processed

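Total RNA from prostate was sequenced in 7 libraries. The deposited values are FPKM computed by the authors. Tools listed in the submitters' processing notes are HISAT2, HTSeq and fastp, with the build mm10, without their settings. Column headers call the values expression, and FPKM was inferred because low values are whole multiples of a step set by gene and library. Whole fragments were recovered on that basis for all 16019 genes, within 0.01 fragments. Coordinates are from GENCODE M21 (mm10), which held 15571 of the symbols.

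limma 3.58.1 in R 4.3.3 was fitted to log2(FPKM + 1) of all genes with a mean-variance trend and no filter or covariate, with Benjamini-Hochberg adjustment and a threshold of 0.05. The log2 differences understate changes of low genes. The code was tested on simulated data in which all libraries shared the same mean profile apart from the planted changes. That test does not show how well changes are found in libraries as unlike as these. The genes and lists were chosen with earlier results of these data known. Named pathway genes were the 3 smallest p per list, since none passed, and the 2 genes closest in pattern to each member. The values of 1 gene named by this rule are not reported here. The Svs1 class and the gene ratios were added after values were seen. Alternatives were another pseudocount, a filter, other scalings, voom, a replicate block and leaving out libraries. Python 3.11.15 drew the figures.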

Additional observations from a re-analysis of the deposited data

Results flagged for a closer look

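Tgfb1 in LIT-927 replicate 3 was at 2.28 FPKM, far from the other LIT-927 libraries at 7.47 to 8.50 FPKM, a gap larger than Dixon's 95% limit for 4 samples. The test was made for 10 genes in the LIT-927 group only, since the vehicle group has 3 libraries, and chance sets apart about 1 group in 20. In that library Svs1 was at 11062 FPKM, against 38.8 to 243 FPKM in the other 3.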

How the results depend on the processing

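No gene, member or pathway gene was called in any of the 23 alternatives. Tgfb3, Bmp4, Inhba and Tgfbr2 kept a difference below 0 in all alternatives that gave a value (Inhba gave none under the minimum of 1 FPKM), and limma adjusted p ran from 0.166 to 1.0 for Tgfb3. Leaving out each library, the Tgfb3 difference ranged from -1.23 to -0.67 (scaled, -1.23 to -0.88) that of Bmp4 from -1.07 to -0.14, that of Tgfbr2 from -0.75 to -0.081 (scaled, -0.75 to -0.15) and that of Inhba from -0.15 to -0.061. With scaling and the Svs1 class Tgfbr2 was -0.037.

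The other 6 turned sign under some alternatives, and the cause was not tested. Leaving out each library gave -0.14 to 0.46 for Tgfb1, -0.50 to 0.30 for Tgfb2, -0.075 to 0.29 for Tgfbr1, -0.69 to 0.16 for Tgfbr3, -0.068 to 0.65 for Inhbb and -0.35 to 0.67 for Bmp7. With median-of-ratios scaling too, Tgfb1 was -0.076, -0.022, -0.11 and -0.0011 without vehicle replicate 3 and LIT-927 replicates 1, 2 and 4. Tgfbr1 was -0.042 and -0.052 without vehicle replicate 3 and LIT-927 replicate 2, and Tgfb2 was 0.10 without vehicle replicate 1. Inhbb was -0.17, -0.038 and -0.051 without vehicle replicate 3 and LIT-927 replicates 1 and 2. Bmp7 was -0.070, -0.17, -0.074, -0.13 and -0.22 without vehicle replicates 3 and 4 and LIT-927 replicates 1, 2 and 4. Without both replicates 3, Tgfb2 was 0.084 and Tgfbr3 0.010. With the Svs1 class as covariate, added after seeing the data, Tgfb1, Tgfbr1, Inhbb and Bmp7 were -0.40, -0.19, -0.49 and -0.72, and with scaling as well -0.27, -0.056, -0.41 and -0.58. Of the 10 genes, 6 were lower as deposited, 4 to 10 when a library was left out (5 to 10 with scaling), 8 with the replicate block, and 10 with the Svs1 class, scaled or not. The median difference of all genes was 0.14 without vehicle replicate 1, -0.12 without vehicle replicate 4 and 0.12 without both replicates 3.

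Replicate numbers did not pair the libraries consistently: deviations of same-numbered libraries correlated at 0.565, 0.7 and -0.238 for numbers 1, 3 and 4. Best partners were sought among replicates 1, 3 and 4 of each group, so LIT-927 replicate 2 was not a candidate. Vehicle and LIT-927 replicates 3 correlated best with each other. LIT-927 replicate 1 correlated best with vehicle replicate 1, but vehicle replicate 1 did so with LIT-927 replicate 4. Neither replicate 4 correlated best with its own number. The replicate block, in which LIT-927 replicate 2 has no partner and adds nothing to the difference, gave -0.053 for Tgfb1, -0.067 for Bmp7 and -0.83 for Tgfb3 (limma adjusted p = 1.0), with 0 genes called. Inhba, at 10 to 81 fragments per library, is limited by depth.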
